A study of Homo sapiens with 2 samples.

Results

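The 32 genes described here carry out glycolysis and handle its product, pyruvate. They were chosen by name from 19974 protein-coding genes (chromosomes 1 to 22 and X): glucose transporters, each enzymatic step down to lactate, lactate exporters, the mitochondrial pyruvate carrier and the kinases that hold pyruvate dehydrogenase back. All 32 matched the RefSeq table of GRCh38.p14 by symbol, and they fall into 17 steps. The mark was histone H4 acetylated at lysine 5 (H4K5ac), mapped by chromatin immunoprecipitation and sequencing (ChIP-seq, 75 bp single-end reads) in FaDu, an established cell line from a human head and neck cancer. The hypoxia group was 1 library of FaDu cells held in 1% O2 for 18 h, and the normoxia group was 1 library of FaDu cells at normoxia. Every statement below therefore compares 2 libraries with no replicate check and no test, and intervals cover counting error only. H4K5Ac is the target named in the sample labels, which are followed here, while the series design names H3K4Ac. A METTL4 knockdown is mentioned for the culture, and no label assigns it to either library.

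Glycolysis converts glucose to pyruvate in the cytosol, and cells short of oxygen turn pyruvate into lactate and export it rather than oxidising it in mitochondria. The hypoxia-inducible factors (HIF) are known to raise transcription of many of these genes, among them those for the glucose transporter GLUT1, hexokinase 2, phosphoglycerate kinase, lactate dehydrogenase A and pyruvate dehydrogenase kinase 1, by binding short motifs near their starts. H4K5ac is found around the starts of active genes and in active enhancers, where bromodomain proteins can bind it.

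Each library had its own deposited list of peaks. The hypoxia list held 258195 peaks covering 99.9 Mb, and the normoxia list held 120033 peaks covering 59.2 Mb. Read totals are not given, but the lowest local background among peaks, 3.24 reads in hypoxia and 3.13 reads in normoxia, implies 1.04 to 1.18 times as many reads in the hypoxia library, the range reflecting an unknown fragment length. Of 8 epithelial and squamous marker genes, 7 had a peak at a gene end in both libraries and TP63 only in hypoxia. Of 9 markers of fibroblasts, leukocytes, endothelium and erythroid cells, 2 (COL1A1 and COL1A2) had one in both libraries, 6 only in hypoxia, and PTPRC in neither. A gene-end peak alone therefore did not separate cell types in the longer hypoxia list.

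H4K5ac was already present at nearly all of these genes in both libraries. A gene counted as marked if any peak reached within 1000 bp of its 5′ or 3′ end. By that rule 28 of 32 genes were marked in both libraries, against 69.3% of all protein-coding genes, and none only in hypoxia, against 11.7% of all genes. HK1 and SLC2A3 were marked only in normoxia, where 1.08% of all genes fell, and HKDC1 and PFKFB2 in neither, where 17.9% fell. Annotated transcription starts were held for 29 of the 32 genes, and SLC2A3, PFKFB2 and SLC16A1 had no entry in the promoter table. At the starts of those 29 genes, 28 were marked in both libraries (73% of 15812 genes with a start), HKDC1 in neither, and none in hypoxia only (9.5%) or normoxia only (0.689%). Counting each gene once, none of these 29 genes had a start peak in 1 library alone, although 2 separate start regions of HK1 did. The 3 members without a held start could not be classed this way.

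Amounts were compared as reads covering the peak summit, solved from the deposited fold and p-value and not scaled for depth. For each gene the strongest peak at its starts was used (at either gene end where no start was held). It was chosen in each library separately, so the peaks behind a ratio need not overlap, and at MPC2 and PFKFB4 they did not. Across the 29 genes with such a peak in both libraries, the median was 143 reads in hypoxia and 109 reads in normoxia, above the medians of all 14083 such genes, 113 and 80 reads. The ratio of hypoxia to normoxia reads had a median of 1.28 (middle 50% 1.13 to 1.47, range 0.885 to 2.50), whereas over all genes it was 1.43 (middle 50% 1.24 to 1.67). It was at least 1.5 in 7 of 29 genes, against 41.9% of all genes, and at most 1/1.5 in none, against 0.824%. The 7 were PDK4, ENO2, PFKFB3, ENO1, PDK2, ENO3 and HK1. The ratio was above 1 in 23 genes, and the middle 50% of all genes also lay wholly above 1. It was below 1 in SLC2A1, HK2, PFKL, ALDOC, PGK1 and PGAM1. The 95% interval of the ratio lay wholly below the all-gene median in 5 genes (SLC2A1, HK2, PFKL, PGAM1 and SLC16A1), against 10.3% of all genes, and wholly above it in ENO2, against 7.14%. Scaled for the smaller depth difference, that of equal fragment lengths, the ratio had a median of 1.23 and reached 1.5 in 7 genes. Over all genes that median was 1.38 and the share 35.3%. Scaled for the larger depth difference that the narrowest peaks imply, the ratio had a median of 1.08 and reached 1.5 in 3 genes. Over all genes the median was then 1.21 and the share 17.1%. The 3 genes were PDK4, ENO2 and PFKFB3. With the same scaling, GPI, PFKM, SLC16A1 and MPC1 also fell below 1. In 8 of the 29 genes, the start of another gene lay within 1000 bp of the hypoxia summit (SLC2A1, PFKM, ENO1, PGAM1, MPC1, MPC2, PDK1 and PDK4). Such peaks cannot be divided between the genes, and the share of all genes with such a neighbour was not computed.

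**Figure D1:**
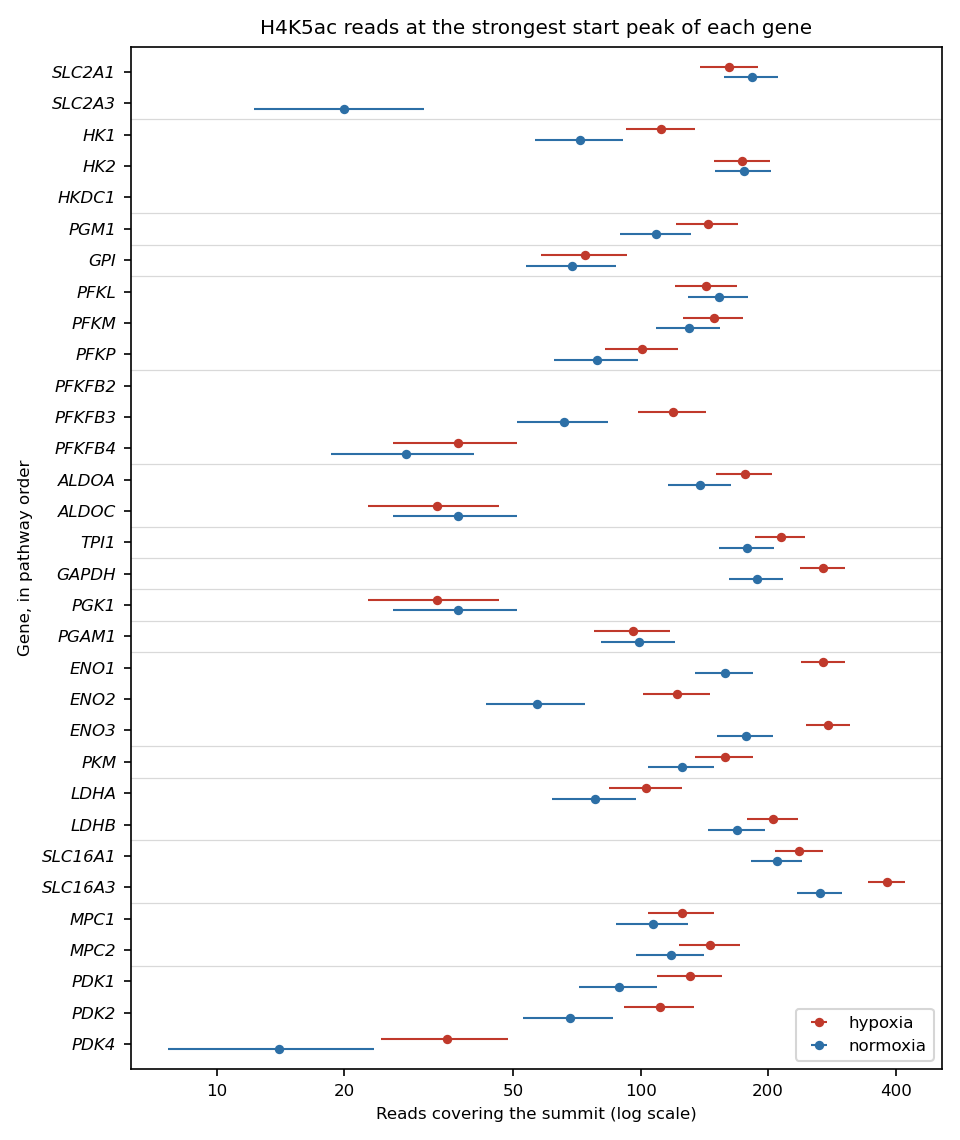
Reads covering the summit of the strongest start peak of each gene (x axis, log scale) in pathway order from glucose uptake to pyruvate dehydrogenase kinases, hypoxia in red above normoxia in blue, with 95% exact Poisson intervals; grey lines separate the steps. SLC16A3 has the most reads in both libraries, PDK4 the fewest in normoxia, and HKDC1 and PFKFB2 have no peak in the windows.

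The plot of summit reads by gene shows that levels spread over more than a factor of 10 among the members within each library. The lowest were PGK1 and ALDOC with 33 reads each in hypoxia, and PDK4 with 14 reads in normoxia. The highest was SLC16A3, which encodes the lactate exporter MCT4, with 381 reads in hypoxia and 265 reads in normoxia. The plot of ratios below orders the same genes by the difference between libraries.

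**Figure D2:**
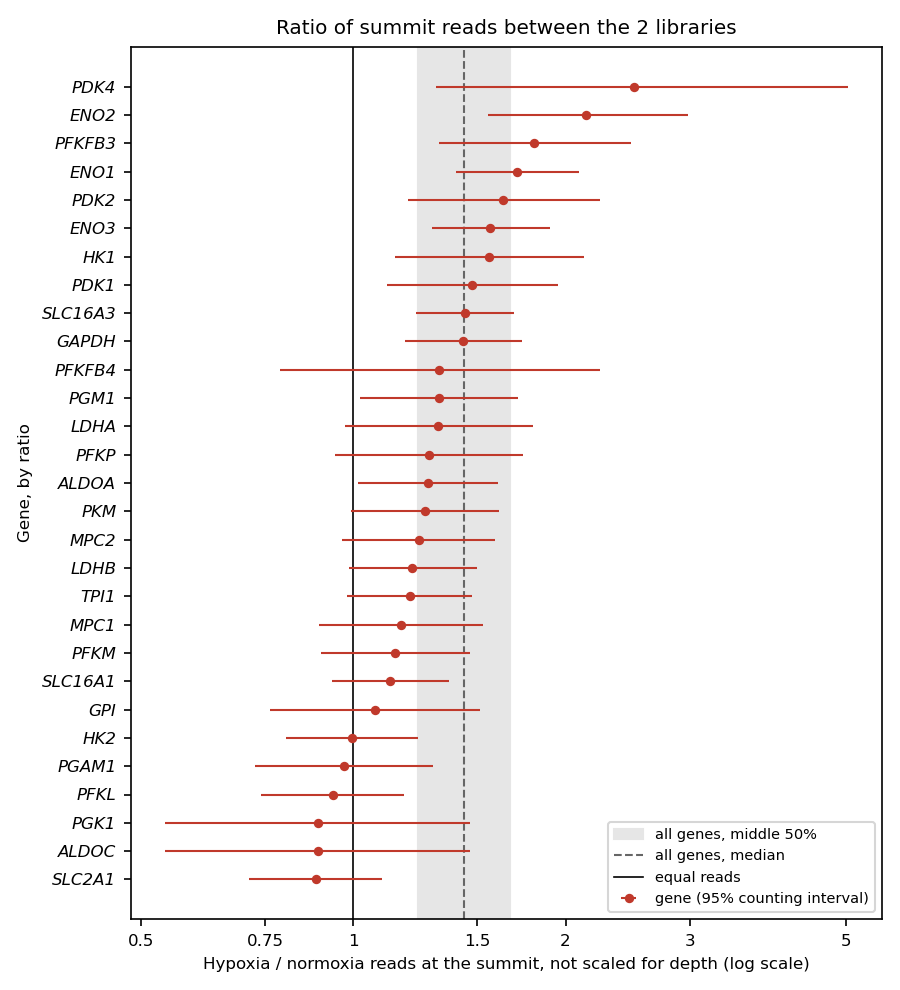
Hypoxia over normoxia summit reads for the 29 genes with a peak in both libraries at a start, or for SLC16A1 at a gene end (x axis, log scale, not scaled for depth), with 95% exact binomial intervals. The dashed line is the median of all 14083 genes (1.43), the grey band their middle 50%, and the solid line equal reads; PDK4 (2.50) and ENO2 (2.14) lie farthest right and SLC2A1 (0.885) farthest left.

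Upstream sequences are shown for the highest ratios, PDK4 and ENO2, and for 4 genes known as HIF targets, SLC2A1, LDHA, HK2 and PGK1, whose ratios were under the all-gene median. Each sequence is the 250 bases upstream of the annotated start, 5′ to 3′ on the gene's strand, from RefSeq on GRCh38.p14. Capitals mark the letters ACGTG or GCGTG, the core of the HIF motif, on either strand (CACGT and CACGC on the strand shown); CACGTG counts once on each strand. PDK4 lies at chr7:95596517-95596766 and SLC2A1 at chr1:42958869-42959118, both on the minus strand. On the plus strand, ENO2 lies at chr12:6914330-6914579, LDHA at chr11:18394313-18394562, HK2 at chr2:74833877-74834126 and PGK1 at chrX:78103998-78104247.
PDK4: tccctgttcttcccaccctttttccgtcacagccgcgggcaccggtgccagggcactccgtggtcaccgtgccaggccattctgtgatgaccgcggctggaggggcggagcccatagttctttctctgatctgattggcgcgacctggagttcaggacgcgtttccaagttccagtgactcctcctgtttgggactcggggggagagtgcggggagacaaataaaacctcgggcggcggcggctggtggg
ENO2: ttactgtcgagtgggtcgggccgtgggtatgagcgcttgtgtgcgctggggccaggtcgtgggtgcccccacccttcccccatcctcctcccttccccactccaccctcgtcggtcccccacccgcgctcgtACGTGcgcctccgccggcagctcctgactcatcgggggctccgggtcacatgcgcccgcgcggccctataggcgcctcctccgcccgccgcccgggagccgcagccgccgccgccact
SLC2A1: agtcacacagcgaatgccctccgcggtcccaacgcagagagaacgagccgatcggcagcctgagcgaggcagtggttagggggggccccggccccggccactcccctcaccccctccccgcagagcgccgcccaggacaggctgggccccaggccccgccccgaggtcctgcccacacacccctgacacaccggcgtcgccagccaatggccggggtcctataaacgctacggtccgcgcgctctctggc
LDHA: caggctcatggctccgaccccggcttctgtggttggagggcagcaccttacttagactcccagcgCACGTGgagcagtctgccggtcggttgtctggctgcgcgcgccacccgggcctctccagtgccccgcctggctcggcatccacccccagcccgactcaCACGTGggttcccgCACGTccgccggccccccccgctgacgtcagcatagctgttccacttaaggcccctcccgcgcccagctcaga
HK2: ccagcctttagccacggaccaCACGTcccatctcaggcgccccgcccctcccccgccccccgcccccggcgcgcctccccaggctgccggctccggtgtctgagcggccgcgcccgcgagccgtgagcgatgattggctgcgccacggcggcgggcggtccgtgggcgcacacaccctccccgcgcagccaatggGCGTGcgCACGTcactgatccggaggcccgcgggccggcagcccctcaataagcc
PGK1: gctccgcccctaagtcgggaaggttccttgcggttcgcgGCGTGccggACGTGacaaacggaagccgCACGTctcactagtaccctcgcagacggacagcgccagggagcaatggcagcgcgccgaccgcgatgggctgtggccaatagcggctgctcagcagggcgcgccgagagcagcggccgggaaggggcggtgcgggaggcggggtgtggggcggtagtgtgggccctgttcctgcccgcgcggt

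PDK4 and SLC2A1 held no match to either motif, and ENO2 held 1 match to ACGTG. LDHA held 5 matches to ACGTG, and HK2 and PGK1 each held 2 to ACGTG and 1 to GCGTG. The windows before the second starts of HK2 and of PDK1, a further known target, held 4 and 2 matches to ACGTG, that of HK2 also 2 to GCGTG, and the window before the first PDK1 start held none. These genes were chosen for their ratios or their known response, so nothing is read from the numbers of matches across them. Over all 62 member promoters, 19 held ACGTG, against 20.2% of 22132 promoters of the same length, and 18 held GCGTG, against 38.2%. By gene, 16 of 29 members held ACGTG (25.3% of 15812 genes), 16 held GCGTG (45.6%), and 22 held at least 1 of the motifs (56.8%). Members had more windows per gene, 62 for 29 genes against 22132 for 15812. More windows raise a share counted by gene, so the shares by gene are not like for like. A match describes these letters in this window and nothing about binding.

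Glucose uptake showed no excess of the mark in hypoxia at the start. SLC2A1 (chr1:42925353-42958868, minus strand), which encodes GLUT1, had 162 reads in hypoxia (95% Poisson interval 138 to 189) and 183 reads in normoxia (157 to 212) at its start. The ratio was 0.885 (0.712 to 1.10), the lowest of the 29 genes. The difference at its 3′ end had the other direction. A peak with its summit 591 bp beyond the gene's end had 136 reads in hypoxia, and its counterpart 670 bp beyond the end had 84 reads in normoxia. Inside the gene, a peak had 99 reads in hypoxia, 17550 bp from the start, and the overlapping one had 128 reads in normoxia. Another, 22351 bp in, had 115 reads in hypoxia and 77 reads in normoxia. The neuronal transporter gene SLC2A3 (GLUT3; chr12:7919230-7936187) had a gene-end peak only in normoxia, with 20 reads (12.2 to 30.9) and a fold of 3.31, the fold being the authors' enrichment over local background, read only within its own list. It held 4 peaks in its span in hypoxia and 2 in normoxia, none of them strong (strong meaning −log10 q of at least 10). SLC2A3 has a near-identical copy, SLC2A14, so reads assigned to it are uncertain.

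Hexokinases trap glucose in the cell as glucose 6-phosphate, and the 3 genes differed from each other. HK2 (chr2:74834127-74893359), the inducible isozyme of many tumours, had 174 reads in hypoxia and 175 reads in normoxia at its start, a ratio of 0.994 (0.801 to 1.23). Downstream, a peak 11727 bp into HK2 had 38 reads in hypoxia, against 61 reads at the overlapping normoxia peak. Near the 3′ end, a peak 53840 bp in had 36 reads in hypoxia and 55 reads in normoxia, and one just beyond the end had 28 reads in hypoxia and 50 reads in normoxia. A peak 30827 bp in was level, with 43 reads in hypoxia and 42 reads in normoxia, and one 17007 bp in, with 33 reads, was listed only in hypoxia. The hypoxia list still held more peaks in the HK2 span, 13 against 5 in normoxia.

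HK1 (chr10:69270000-69401882), the isozyme of most tissues, has 5 separate start regions, and the libraries differed by region. The most upstream region had a peak only in normoxia, with 14 reads, a fold of 3.42 and a −log10 q of 3.49. The second region, at position 69278496 of the chromosome, had a peak only in hypoxia, with 15 reads, a fold of 3.62 and a −log10 q of 4.24. Both were among the weakest peaks described here, close to the lowest background. The third region was unmarked in both libraries. The fourth region carried most of the mark: its upstream peak had 112 reads in hypoxia (92.2 to 135) and 72 reads in normoxia (56.3 to 90.7), a ratio of 1.56 (1.15 to 2.12), and its downstream peak had 84 reads in hypoxia and 56 reads in normoxia. The fifth region had 3 peaks in hypoxia and 2 in normoxia. The first and second regions were the only ones of the 42 member start regions marked in 1 library alone. Of the others, 35 were marked in both and 5 in neither. The shares of these classes over the start regions of all genes were not computed. The sequences of the 250 bases upstream of the first and second start, chr10:69269750-69269999 and chr10:69278246-69278495 on the plus strand, are shown because they separate the libraries. Neither holds ACGTG or GCGTG on either strand.
HK1 first start: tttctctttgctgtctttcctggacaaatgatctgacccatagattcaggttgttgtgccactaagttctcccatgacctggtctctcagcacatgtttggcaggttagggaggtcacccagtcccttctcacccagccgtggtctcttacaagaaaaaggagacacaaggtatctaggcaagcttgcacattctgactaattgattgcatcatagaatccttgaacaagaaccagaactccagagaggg
HK1 second start: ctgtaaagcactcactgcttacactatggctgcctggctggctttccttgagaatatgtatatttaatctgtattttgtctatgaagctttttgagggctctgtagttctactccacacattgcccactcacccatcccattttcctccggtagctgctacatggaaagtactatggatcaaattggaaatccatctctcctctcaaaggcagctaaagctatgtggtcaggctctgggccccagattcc

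The strongest peak near HK1 was not at a start. Its summit lay beyond the 3′ end of the 131883 bp gene, 139142 bp from the first start in hypoxia, and had 202 reads in hypoxia and 95 reads in normoxia, with folds of 13.0 and 8.87. The nearest other annotated start, that of TACR2, was 7776 bp from the hypoxia summit. HKDC1 (chr10:69220332-69267552), a hexokinase-like gene directly upstream of HK1, had no peak within 1000 bp of its start or end. Inside it, hypoxia peaks 2323, 5403 and 11967 bp from the start had 69, 89 and 74 reads, and the overlapping normoxia peaks had 58, 54 and 36 reads. The site at 11967 bp lies 191 bp from the start of the non-coding gene LOC101928994 in the hypoxia list. HKDC1 held 14 peaks in hypoxia and 4 in normoxia, and HK1 held 28 and 13, which is 2.96 against 0.847 peaks per 10 kb for HKDC1 and 2.12 against 0.986 per 10 kb for HK1.

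**Figure D3:**
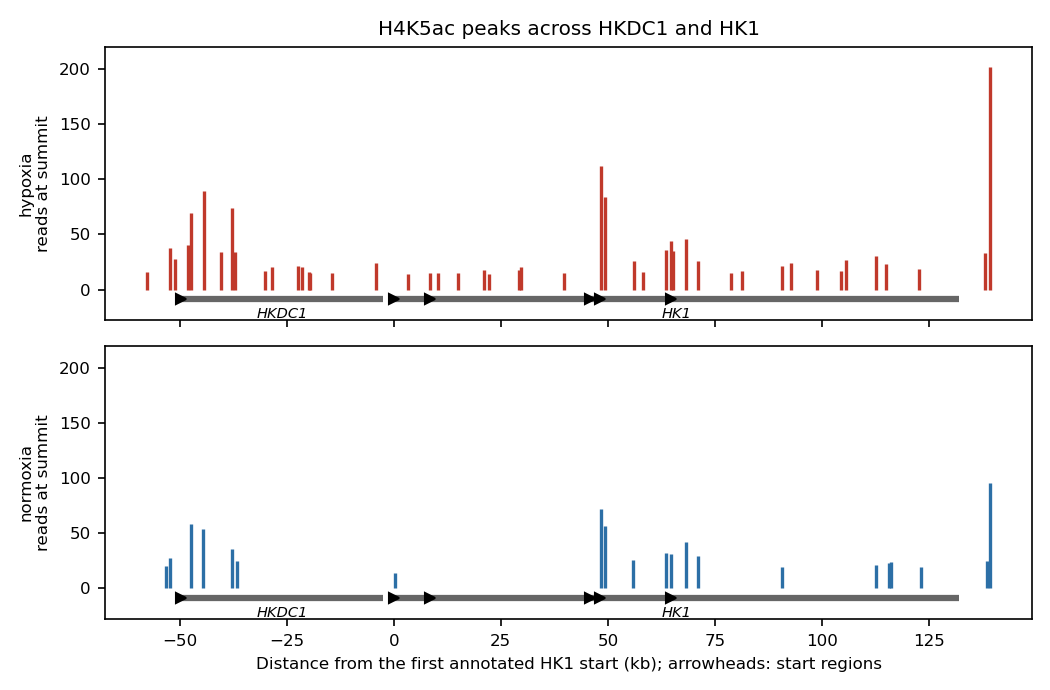
Peaks across HKDC1 and HK1, with hypoxia above and normoxia below: each vertical line is a peak summit, its height the reads covering it, and the x axis the distance from the first annotated HK1 start in kb. Grey bars are the gene spans and black arrowheads the start regions; the tallest line in both libraries lies beyond the HK1 3′ end, and the small normoxia peak at the first HK1 start has no hypoxia counterpart.

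In the hexokinase map, most additional hypoxia peaks are low. Between the first and the fourth HK1 start regions, the hypoxia peaks had 14 to 20 reads, and normoxia had no peak beyond that at the first start.

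Phosphoglucomutase links glycogen to the pathway, and glucose-6-phosphate isomerase catalyses the next step. PGM1 had 144 reads in hypoxia and 109 reads in normoxia at its first start region, a ratio of 1.32 (1.02 to 1.71), while its second region was unmarked in both. Its strongest start peak was 1699 bp wide in hypoxia and 2010 bp wide in normoxia, and the normoxia width was the largest among those peaks of the members. GPI was close to level at its stronger, downstream region, with 74 reads in hypoxia and 69 in normoxia, and had 57 reads in hypoxia and 40 reads in normoxia at its upstream region.

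Phosphofructokinase commits sugar to glycolysis and has 3 isozyme genes, with ratios from 0.935 to 1.28. The liver-type gene PFKL had 143 reads in hypoxia and 153 reads in normoxia, a ratio of 0.935 (0.739 to 1.18). Its start carried 2 peaks in hypoxia, the stronger 921 bp wide, and 1 peak of 1577 bp in normoxia. The muscle-type gene PFKM had 149 reads in hypoxia and 130 reads in normoxia, with a fold of 11.4 in hypoxia that placed it in percentile 85.7 of its list. The start of SENP1, which encodes a SUMO protease, lay 16 bp from the hypoxia summit and 74 bp from the normoxia summit, so the peak cannot be assigned to 1 of these genes. The platelet-type gene PFKP had 101 reads in hypoxia and 79 reads in normoxia. The second start regions of PFKM and PFKP, within the genes, were unmarked in both libraries. Together the 3 genes had 25 peaks in hypoxia and 10 in normoxia within 10 kb, or 2.50 times as many (1.16 to 5.83), but 7 against 6 strong ones.

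The bifunctional PFKFB enzymes set fructose 2,6-bisphosphate, the activator of phosphofructokinase, and they differed among themselves. PFKFB3 (chr10:6144921-6326637), whose enzyme has high kinase activity and is known to be hypoxia-inducible, had 119 reads in hypoxia (98.6 to 142) and 66 reads in normoxia (51.0 to 84.0) at its first start, a ratio of 1.80 (1.32 to 2.47). The local background there was 15.0 reads in hypoxia and 10.3 reads in normoxia, with folds of 7.50 and 5.95. At its second start, at position 6202932, the strongest peaks were near level, with 63 reads in hypoxia and 59 reads in normoxia. The region of the second start also had a hypoxia peak of 39 reads upstream and a normoxia peak of 33 reads 1256 bp downstream. Neither overlapped a peak of the other library in that region. Inside the gene, a peak 19089 bp in had 126 reads in hypoxia and 79 reads in normoxia, and one 130331 bp in had 114 reads in hypoxia and 63 reads in normoxia. One 74057 bp in had the other direction, with 40 reads in hypoxia and 58 reads in normoxia. PFKFB4, also a known hypoxia-inducible gene, carried little of the mark, with 37 reads in hypoxia and 28 reads in normoxia and no strong peak within 10 kb in either library. Both libraries had a peak on each side of its second start: 37 reads upstream and 36 downstream in hypoxia, and 21 upstream and 28 downstream in normoxia. PFKFB2 had no peak at its ends. Its strongest interior peak had 155 reads in hypoxia and 117 reads in normoxia and lay 399 bp and 360 bp from the start of YOD1, and it cannot be assigned to 1 of these genes.

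The aldolases and triose-phosphate isomerase split and interconvert the sugar phosphates. ALDOA, the main isozyme, had 176 reads in hypoxia and 138 reads in normoxia, a ratio of 1.28 (1.01 to 1.61). The brain isozyme ALDOC was low and level, with 33 reads in hypoxia and 37 reads in normoxia, and its summits lay upstream of the start in both libraries, by 330 and 423 bp. TPI1 had 214 reads in hypoxia and 178 reads in normoxia.

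In the payoff phase, GAPDH and PGK1 differed widely in the level of the mark. GAPDH, which oxidises glyceraldehyde 3-phosphate, had 269 reads in hypoxia (238 to 303) and 188 reads in normoxia (162 to 217), a ratio of 1.43, close to the all-gene median. PGK1 (chrX:78104248-78129295), the first ATP-yielding enzyme, had 33 reads in hypoxia (22.7 to 46.3) and 37 reads in normoxia (26.1 to 51.0). Relative to local background PGK1 was the higher of these 2 genes. GAPDH sat on a background of 77.0 reads in hypoxia and 67.4 reads in normoxia, so its folds were only 3.46 and 2.76. PGK1 sat on 3.24 and 4.92 reads and had folds of 8.02 and 6.41. The 3.24 reads are the lowest background in the hypoxia list, so the hypoxia fold of PGK1 is relative to that floor. PGAM1 was level, with 96 reads in hypoxia and 99 reads in normoxia.

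All 3 enolase genes, whose products form phosphoenolpyruvate, had ratios above 1.5, as did 41.9% of all genes. All 3 stayed above 1.5 when scaled for equal fragment lengths, as did 35.3% of all genes. ENO2 alone of the 3 stayed above 1.5 when scaled for the larger depth difference. The ubiquitous gene ENO1 (chr1:8861000-8878686, minus strand) had 270 reads in hypoxia (239 to 304) and 158 reads in normoxia (134 to 185), a ratio of 1.71 (1.40 to 2.09). Its start carried 3 peaks in hypoxia and 2 in normoxia. The neuronal isozyme gene ENO2 (chr12:6914580-6923697) had 122 reads in hypoxia (101 to 146) and 57 reads in normoxia (43.2 to 73.9), a ratio of 2.14 (1.55 to 2.99). Its summit lay 398 bp upstream of the start in hypoxia and 150 bp downstream in normoxia. The 2 intervals did not overlap for either gene, and ENO2 was the only member whose ratio interval lay above the all-gene median. The local background at ENO2 was also higher in hypoxia, 15.7 reads against 9.85 reads in normoxia. Its folds were 7.39 in hypoxia and 5.35 in normoxia, against medians of 7.96 and 6.05 over all genes. Neighbouring peaks around ENO2 did not all share its direction: a peak 9532 bp upstream, beside the start of LRRC23, had 129 reads in hypoxia and 163 reads in normoxia, whereas the pair downstream had 181 and 171 reads in hypoxia and 113 and 95 reads in normoxia. The muscle isozyme gene ENO3 had 277 reads in hypoxia and 177 reads in normoxia, a ratio of 1.56 (1.29 to 1.90), with the start of PFN1 1220 bp from its hypoxia summit. PFN1 encodes the actin-binding protein profilin, and the peak cannot be assigned to 1 of these genes.

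Pyruvate kinase and lactate dehydrogenase close the cytosolic route. PKM (chr15:72199029-72231591, minus strand) had 158 reads in hypoxia and 125 reads in normoxia at its start, a ratio of 1.26 (0.993 to 1.61). Its largest relative difference was beyond its 3′ end, where a peak had 125 reads in hypoxia and 44 reads in normoxia, but the start of GRAMD2A lay 193 and 115 bp from those summits. The reverse was seen 5732 bp upstream of the start, with 81 reads in hypoxia and 127 reads in normoxia. LDHA (chr11:18394563-18408425), whose enzyme favours lactate formation, had 103 reads in hypoxia (84.1 to 125) and 78 reads in normoxia (61.7 to 97.3) just inside the gene. Upstream of the same start it had 31 reads in hypoxia and 58 reads in normoxia. The gene-side ratio was 1.32, and its interval (0.974 to 1.80) includes both 1 and the all-gene median of 1.43. Strong peaks within 10 kb were more numerous in hypoxia at 19 of 32 members and equal in number at 12. They were fewer only at LDHA, 1 against 3 in normoxia. The LDHA ratio of strong peaks was 0.333 (0.00635 to 4.15), and the shares of all genes in these classes were not computed. LDHB, whose enzyme favours pyruvate formation, had 205 reads in hypoxia and 169 reads in normoxia. Its folds, 11.4 and 9.23, were the highest in each list among the members' strongest start peaks.

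The lactate exporter genes had some of the highest summit reads among the members. SLC16A3 (chr17:82217934-82240086), encoding the hypoxia-inducible exporter MCT4, had 381 reads in hypoxia (344 to 421) and 265 reads in normoxia (234 to 299), a ratio of 1.44 (1.23 to 1.69), close to the all-gene median. It sat on a local background of 101 reads in hypoxia and 67.3 reads in normoxia, so its folds were only 3.74 and 3.90. All 4 of its start regions were marked in both libraries. The second region, around position 82228435, had 3 peaks in hypoxia, the strongest with 253 reads, and 1 in normoxia with 151 reads. SLC16A1 (chr1:112911847-112956196), encoding MCT1, had 237 reads in hypoxia and 210 reads in normoxia, a ratio of 1.13 (0.933 to 1.37). Within its span it held 14 peaks in hypoxia and 5 in normoxia, and 8 against 4 strong ones within 10 kb.

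Pyruvate entry into mitochondria and its oxidation were covered by 5 genes. The carrier subunit gene MPC1 had 125 reads in hypoxia and 107 reads in normoxia. MPC2 had a pair of peaks in each library: the one at the start had 146 reads in hypoxia and 111 reads in normoxia, and the one about 1215 bp inside had 116 reads in hypoxia and 118 reads in normoxia. The 3 pyruvate dehydrogenase kinase genes, whose products switch off pyruvate oxidation, had ratios from 1.47 to 2.50, and the intervals of all 3 include the all-gene median of 1.43. PDK1 had 131 reads in hypoxia (110 to 155) and 89 reads in normoxia (71.5 to 110), a ratio of 1.47 (1.12 to 1.95). PDK2 had 111 reads in hypoxia (91.3 to 134) and 68 reads in normoxia (52.8 to 86.2), a ratio of 1.63 (1.20 to 2.24). PDK4 (chr7:95583499-95596516, minus strand), the isozyme induced by fasting and fatty acids, had 35 reads in hypoxia (24.4 to 48.7) and 14 reads in normoxia (7.65 to 23.5), a ratio of 2.50 (1.31 to 5.03). PDK4 had the highest ratio of the members on the lowest normoxia count. Its start was covered by 1 peak of 1122 bp in hypoxia and by 2 peaks of 377 and 269 bp in normoxia. The start of the antisense gene PDK4-AS1 lay 87 bp from the hypoxia summit, and reads of the mark there cannot be divided between these genes.

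The position of the mark around the starts was similar among the members. Among 28 genes with a start peak in both libraries, the summit of the strongest peak lay downstream of the start in 23 in hypoxia (82.1%) and 25 in normoxia (89.3%). Over all 11518 such genes the shares were 72.5% in hypoxia and 72.3% in normoxia. Distances ran from the most upstream start of a region, so a peak at a later start of that region counted as downstream. How the number of starts in a region affects these shares was not tested. Member peaks were also wider, with medians of 1042 bp in hypoxia and 1127 bp in normoxia, against 890 and 995 bp over all genes. Of the 35 start regions marked in both libraries, 8 had more peaks in hypoxia (18% of 12515 such regions over all genes), 3 had fewer (12.5%) and 24 had equal numbers.

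**Figure D4:**
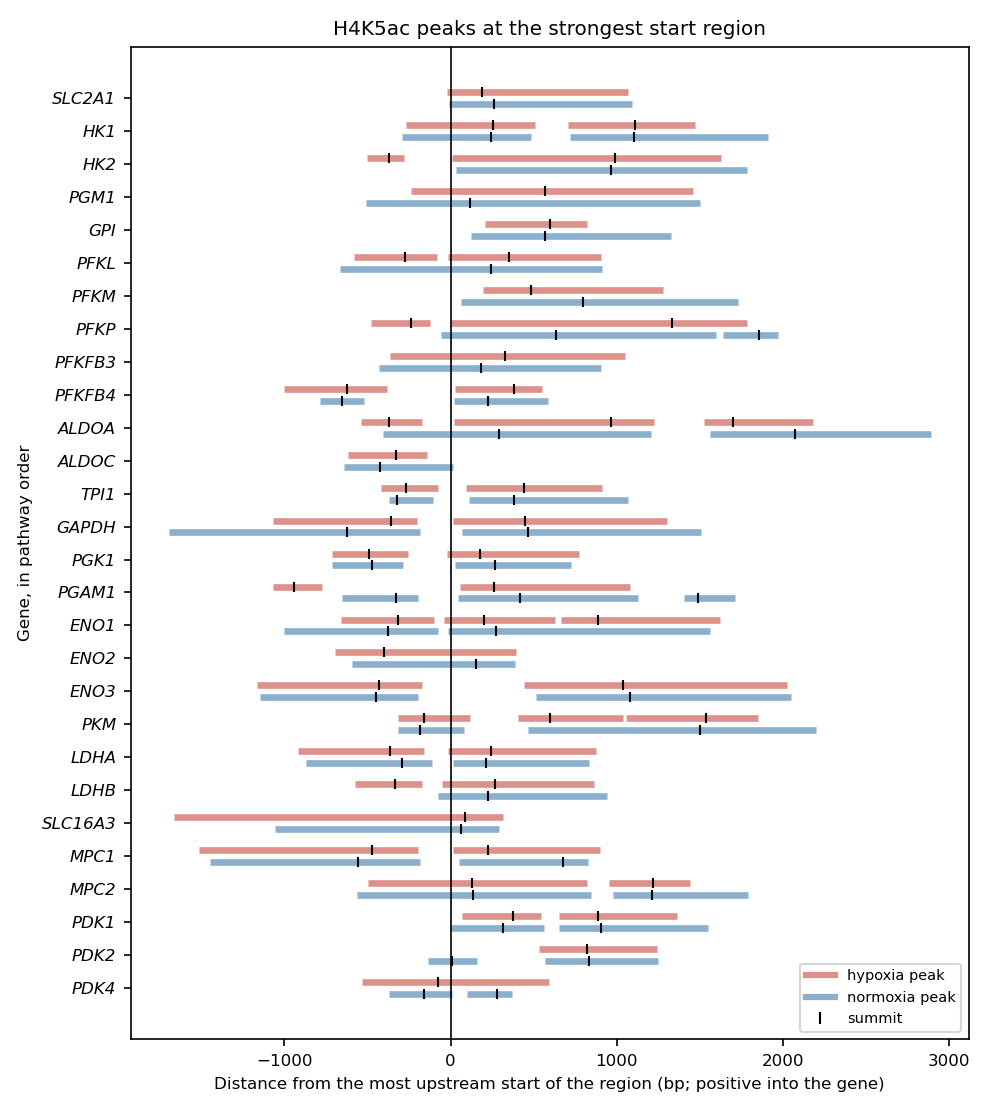
Peaks at the strongest start region of the 28 genes with annotated starts marked in both libraries, hypoxia in red above normoxia in blue, with black ticks at summits; the x axis is the distance in bp from the most upstream start of the region, positive into the gene. At many genes the peaks leave a gap around the start and the stronger one lies inside the gene, whereas SLC2A1, PGM1, PFKFB3, ENO2 and SLC16A3 have 1 peak across the start in both libraries.

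The map of start peaks also shows wide normoxia peaks overlapped by 2 hypoxia peaks at ENO1, PKM, ALDOA and PFKL, and the opposite at PDK4 and PFKP. An additional hypoxia peak stood apart from the normoxia peaks at HK2, LDHB, PFKP and PGAM1. Normoxia peaks stood apart from those in hypoxia at PDK2 and PGAM1. At HK2 the additional hypoxia peak had 45 reads and lay 373 bp upstream of the start, beside a downstream peak that was level between libraries.

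The members ranked high by reads and lower by fold. Within each list, genes with a start or end peak were ranked, 16214 in hypoxia and 14253 in normoxia. The members' median percentile by summit reads was 70.2 in hypoxia and 70.2 in normoxia, but by deposited fold it was 46.8 in hypoxia and 35.0 in normoxia. Their local backgrounds were higher than those of all genes, with medians of 18.5 reads in hypoxia and 17.4 reads in normoxia, against 12.7 and 11.8 reads. GAPDH was in percentile 96.3 by reads and 10.4 by fold in hypoxia, and in 95.1 and 2.33 in normoxia. SLC16A3 showed the same pattern, at 99.8 and 13.4 in hypoxia and 99.2 and 13.7 in normoxia.

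**Figure D5:**
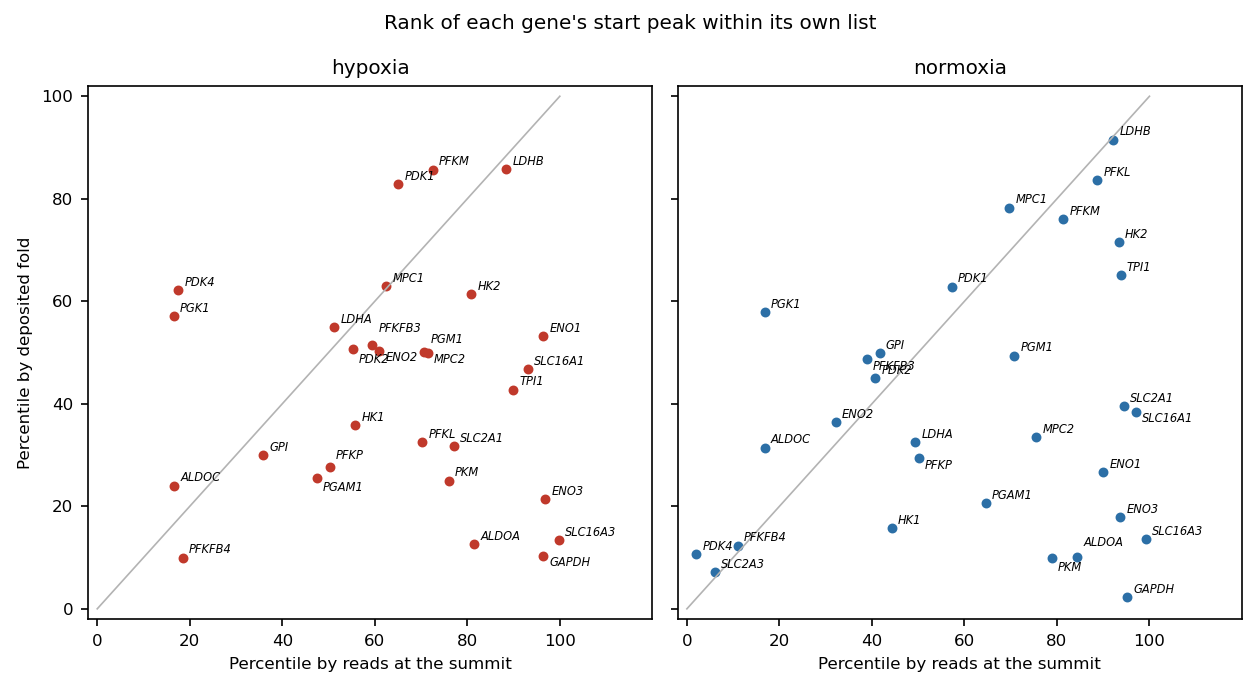
Percentile of each gene's strongest start peak by summit reads (x axis) and by deposited fold over local background (y axis), within the hypoxia list (left) and the normoxia list (right); the grey line marks equal percentiles. Most members lie below the line, GAPDH and SLC16A3 farthest, and PGK1 lies above it in both lists.

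At 3′ ends the mark was less common and the libraries differed more by gene. Among the 29 genes with a known start, the 3′ end was marked in both libraries at SLC2A1, HK2, PFKFB4, LDHA and PKM (5 genes; 11.3% of all genes). It was marked only in hypoxia at MPC2, PFKP and PGAM1 (3 genes; 13.9%) and only in normoxia at PFKL (1 gene; 2.41%), and 20 genes had no peak there in either library. The hypoxia-only peaks were weak, with 13 reads at MPC2, 21 at PFKP and 31 at PGAM1, and the normoxia-only peak at PFKL had 23 reads.

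Inside and around the genes the hypoxia list held more peaks, as it did genome-wide. The member spans held 222 peaks in hypoxia and 132 in normoxia, giving a ratio of 1.68 (1.35 to 2.10), against 2.06 over the spans of all genes. Within 10 kb there were 325 in hypoxia and 195 in normoxia, or 1.67 times as many (1.39 to 2.00), against 2.04 over all genes. In 19 of 32 genes the span held more hypoxia than normoxia peaks (63.5% of all genes). In 5, namely PGM1, ALDOC, PGK1, PGAM1 and PDK4, it held fewer (6.01%). By step, the hexokinases had 63 peaks in hypoxia and 28 in normoxia within 10 kb, which is 2.25 times as many (1.42 to 3.65), and pyruvate kinase had 14 and 6, or 2.33 times (0.842 to 7.41). Lactate transport had 29 and 15, or 1.93 times (1.00 to 3.88), and the pyruvate dehydrogenase kinases had 38 and 25, or 1.52 times (0.894 to 2.63). The intervals of all these steps overlap. When the hypoxia list was limited to as many peaks as the normoxia list, taking the lowest q-values, the member spans held 122 peaks in hypoxia and 132 in normoxia, or 0.924 times as many, against 0.993 over all genes.

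Strong peaks differed less. Within 10 kb of the members there were 108 strong peaks in hypoxia and 82 in normoxia, or 1.32 times as many (0.979 to 1.78), against 1.51 over all genes. Of the strong peaks, 90.7% in hypoxia (exact binomial interval 83.6% to 95.5%) overlapped a normoxia peak, and 82 of 82 in normoxia overlapped a hypoxia peak. Over all genes these shares were 89.3% and 98.5%. Counting all peaks, 48.0% of 325 hypoxia peaks (42.5% to 53.6%) and 76.4% of 195 normoxia peaks (69.8% to 82.2%) overlapped the other list, against 35.7% and 71.1% over all genes.

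Related carbon metabolism genes were set beside the members by the gene-end rule. Marks in both libraries were seen at all 21 genes of the pyruvate dehydrogenase complex and tricarboxylic acid cycle and at all 7 pentose phosphate genes. Of 8 gluconeogenesis genes, 4 were marked in both and 4, G6PC2, FBP2, G6PC1 and PCK1, in neither. Tissue-restricted glycolytic isozymes differed from these. Of 19, 9 were marked in both libraries, 4 only in hypoxia (PGK2, PGAM2, LDHAL6A and SLC16A8), GCKR only in normoxia and 5 in neither. Where such a hypoxia-only peak was at a start, it had from 12 reads at PGK2, the testis form of phosphoglycerate kinase, to 43 reads at PGAM2, the muscle form of phosphoglycerate mutase. With lists of equal length, 1 of the 19 was marked only in hypoxia.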

How the data were processed

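The data were 2 peak lists of H4K5ac ChIP-seq from FaDu cells, 1 library in hypoxia and 1 in normoxia, deposited as called in each library on its own. The submitters' processing notes name hg38 as the build and MACS2 and SICER as tools. Tool versions and settings, and whether a control was sequenced, are not given in the sources used. The authors deposited for each peak a score, a fold enrichment at the summit (a ratio), and the p-value and q-value as −log10. The deposited score was 10 times the −log10 p rounded down in 99.998% of hypoxia and 100% of normoxia peaks.

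Gene spans, starts and promoter sequences came from RefSeq tables of GRCh38.p14, which uses hg38 coordinates. Peaks were assigned by at least 1 bp of overlap with the span, with 1000 bp either side of its ends or of annotated starts, and with the span extended by 10 kb. Start regions join starts within 2000 bp. Strong peaks have a −log10 q of at least 10. Summit reads and local background were solved from the deposited fold, taken as (reads + 1) / (background + 1), and the Poisson p-value. This gave whole reads in all peaks, with a largest error in −log10 p of 0.000198, and recovered 100% of 5000 simulated peaks. Such reads depend on the fragment length used in peak calling, and the narrowest peaks were 215 bp in hypoxia and 245 bp in normoxia. Intervals are 95% exact Poisson for reads and exact binomial (Clopper-Pearson) for shares and ratios; they cover counting error only, and reads without molecular identifiers are not independent molecules. The depth is known only as implied by the lowest background. Python 3.11.15, numpy 2.4.6, pandas 2.3.3, scipy 1.17.1 and matplotlib 3.10.9 were used.

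All 32 members are named whatever their values, and from the other lists those marked in 1 library; 1 gene of those lists is not reported here. Neighbouring genes and single peaks were chosen after their values were seen. The members and lists were chosen with earlier results of these data known. Alternatives were other windows, overlaps and q-value thresholds, lists of equal length, stitched peaks and depth scaling, the last added after the data were seen.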

Additional observations from a re-analysis of the deposited data

How the results depend on the processing

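No paired analysis was possible because each condition has 1 library. With 2000 bp windows, HKDC1 became marked only in hypoxia, so that the hypoxia-only count was 1 and the unmarked count 1 by gene ends, and 1 and 0 by starts. With peaks of −log10 q of at least 10, PDK4 became hypoxia only, and the counts by gene ends were 1 hypoxia only, 0 normoxia only (HK1 and SLC2A3 lost their peaks) and 5 unmarked. By starts they were 1 hypoxia only and 2 unmarked, PFKFB4 among them. The ratio of hypoxia to normoxia peaks in member spans was 0.924 with lists of equal length and 1.31 with strong peaks, and within 10 kb 0.969 and 1.32. With reads scaled by the depth that the narrowest peaks imply, the median ratio of summit reads was 1.08 and 3 genes reached 1.5. With equal list lengths, 1 tissue-restricted isozyme was marked only in hypoxia. These 16 of the 57 alternatives for the main counts and ratios moved them beyond their interval or 1.5 times, and 41 did not; of 185 alternatives for single genes, 10 did. The cause was not tested, beyond the smaller lists that a stricter threshold leaves. A solution of summit reads with no pseudocount gave whole reads in 0.649% of hypoxia and 0.923% of normoxia peaks under 100 reads and was not used. With 1 library per condition, a difference between conditions cannot be told apart from a difference between libraries.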
